A study of Mus musculus with 8 samples.

Results

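The 10 genes described here encode the enzymes and the carrier that bring long-chain fatty acids into mitochondria and oxidise them. They were taken by name, as Cpt1a, Cpt2, Slc25a20, Acadm, Acadl, Acadvl, Hadha, Hadhb, Acaa2 and Etfdh, and all 10 were found among the 28239 gene symbols of the count table. The libraries came from splenic naïve CD4+ T cells of mice labelled as C57BL/6 in strain background that were wild type (WT) or carried the Alox15-/- genotype, 4 mice of each, and 1 library was made per mouse. All cells were cultured for 2 days under conditions that drive differentiation to regulatory T cells (Tregs), with IL-2 at 100 U/ml, TGF-β at 5 ng/ml and 1 bead with antibodies to CD3 and CD28 per cell. The study used mice of 10 to 12 weeks and of both sexes, and the labels do not give the sex or the age behind a single library. RNA was profiled by MACE-seq, which reads transcripts near their 3′ ends, and the deposited values are raw counts per gene. The comparison asks whether the genes for fatty acid oxidation differed between Alox15-/- and WT Tregs.

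Fatty acid oxidation starts with a fatty acid joined to coenzyme A, which cannot cross the inner mitochondrial membrane. The carnitine shuttle carries it across, and the β-oxidation spiral then shortens it by repeated rounds of dehydrogenation, hydration, a further dehydrogenation and thiolysis, each round releasing acetyl-CoA. Regulatory T cells are known for a greater use of fatty acid oxidation and oxidative phosphorylation than effector T cells, which lean on glycolysis.

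Library totals ran from 3723151 to 9538962 counts. CPM (a gene's counts scaled to the total of its library) were adjusted by the TMM method, which evens out differences in composition between libraries. Reads on the targeted gene, Alox15, were more frequent in the libraries labelled Alox15-/-, with a mean of 66.8 ± 3.18 CPM (SD) that compares with 5.28 ± 3.59 CPM (SD) in WT, n = 4 for both. The sources used here do not say which part of the gene the allele removes, so reads near its 3′ end do not check the labels, and groups are named below as labelled. All 11 T cell and Treg markers examined were detected, with a summed level of 3253 to 3449 CPM in the libraries labelled Alox15-/- and 3322 to 3598 CPM in WT, and none passed the adjusted threshold. Foxp3, the defining Treg transcription factor, spanned 71.4 to 113 CPM in the libraries labelled Alox15-/- (93.0 ± 17.0, mean ± SD) and 92.9 to 194 CPM in WT (124 ± 47.2, n = 4 for both), ranges that overlapped (log2 fold change -0.42, interval -0.85 to 0.01, edgeR adjusted p = 0.655). Of the other markers on that list, Cd4 and Cd3g were chosen after their values were seen. Cd4 was lower in each library labelled Alox15-/- than in any WT library (log2 fold change -0.32, edgeR adjusted p = 0.358). Cd3g, a subunit of the T cell receptor complex, was higher in each (0.31, edgeR adjusted p = 0.294), while the groups of Cd3d and Cd3e overlapped. Groups that did not overlap were found for 5.25% of all genes tested. Markers of other cells were higher in the libraries labelled Alox15-/-. Among those tested, all 5 erythroid, 7 of 8 mast cell and basophil, both eosinophil, 5 of 8 myeloid and 4 of 6 NK and γδ T cell markers passed the adjusted threshold as higher. The summed erythroid markers spanned 904 to 3474 CPM against 34.8 to 123 CPM in WT, the mast cell and basophil markers 143 to 366 CPM against 59.0 to 83.5 CPM, the eosinophil markers 21.3 to 78.0 CPM against 1.25 to 6.68 CPM, the myeloid markers 154 to 515 CPM against 91.2 to 133 CPM, and the NK and γδ T cell markers 102 to 197 CPM against 54.5 to 67.2 CPM. The eosinophil genes Prg3, Ear2 and Ear6 were at 0 in all WT libraries. B cell markers overlapped between the groups, at 211 to 309 CPM and 207 to 299.7 CPM, with Ms4a1 alone of the 3 tested past the threshold, as lower. The part of these other cells in the values below was not tested.

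None of the 10 fatty acid oxidation genes passed the adjusted threshold between the groups. All 10 passed the filter on low counts (at least 2 CPM in at least 4 libraries), and relative to WT the libraries labelled Alox15-/- had a higher mean for 4 of them and a lower mean for 6. Differences ranged from -0.25 for Hadha to 0.12 for Slc25a20 on the log2 scale, with a median of -0.084, beside a median of -0.0073 over the 12700 genes tested. By edgeR's two-sided quasi-likelihood test, 0 of 10 members had a Benjamini–Hochberg adjusted p under 0.05, against 1.24% of all genes tested, and their adjusted p ranged from 0.459 to 0.977. DESeq2, limma-voom and edgeR's likelihood-ratio test also called 0 of 10. At an unadjusted p under 0.05, 1 of the 10, Hadha, was below the threshold, against 7.84% of all genes, or 3.38% counting only genes lower in the libraries labelled Alox15-/-. A log2 fold change below 0 was found for 51.8% of all genes tested. In RNA from bulk cells, fewer cells of a type and less RNA per cell cannot be told apart.

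The intervals give the sizes of difference that these libraries leave possible. The 95% intervals of the 10 log2 fold changes lay between -0.54 and 0.44 in all, which corresponds to folds between 0.689 and 1.35. Of the 10 intervals, 9 included 0, and 0 reached a doubling or a halving. Their widths ran from 0.405 for Hadha to 0.792 for Cpt2.

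**Figure D1:**
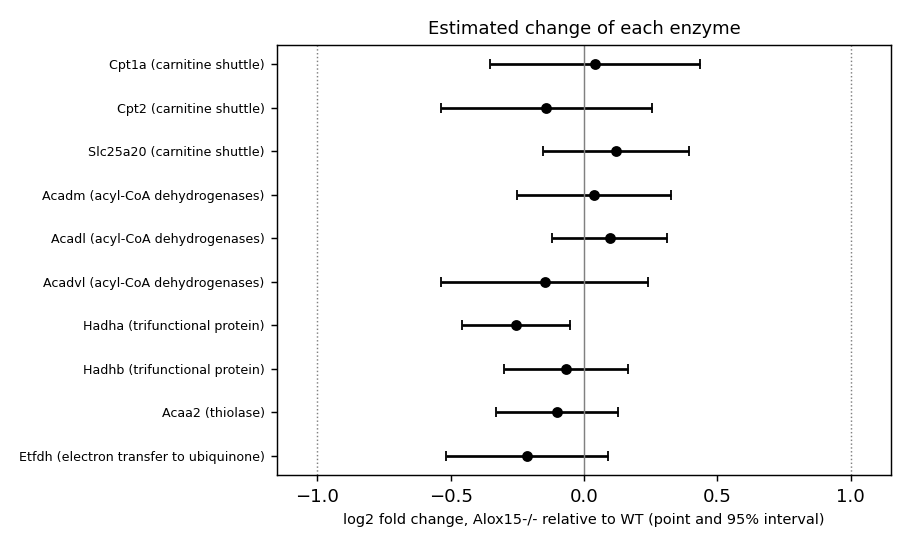
Log2 fold change of each of the 10 genes in the libraries labelled Alox15-/- relative to WT (x axis), with 95% intervals as horizontal lines and dotted lines at a halving and a doubling. All intervals lie between -0.54 and 0.44, and the interval of Hadha alone lies wholly below 0.

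The spread that counting alone gives, as an SD of log2 CPM, ran from 0.0327 for Acadl to 0.164 for Cpt2. Between 43 reads (Cpt2) and 2918 reads (Acadl) stood behind a value. CPM from reads near the 3′ end were not divided by transcript length, so the levels of different genes are not ranked here. The spread between libraries of a group, as a pooled SD of log2 CPM, was 0.136 at the median over the 10 genes. Over all genes tested that had no library at 0, which were not matched to the members for read level, the median was 0.221. The spread was above that background in 4 of the 10, Cpt1a, Cpt2, Acadvl and Etfdh. It was narrowest for Hadha at 0.0826 and widest for Acadvl at 0.347.

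**Figure D2:**
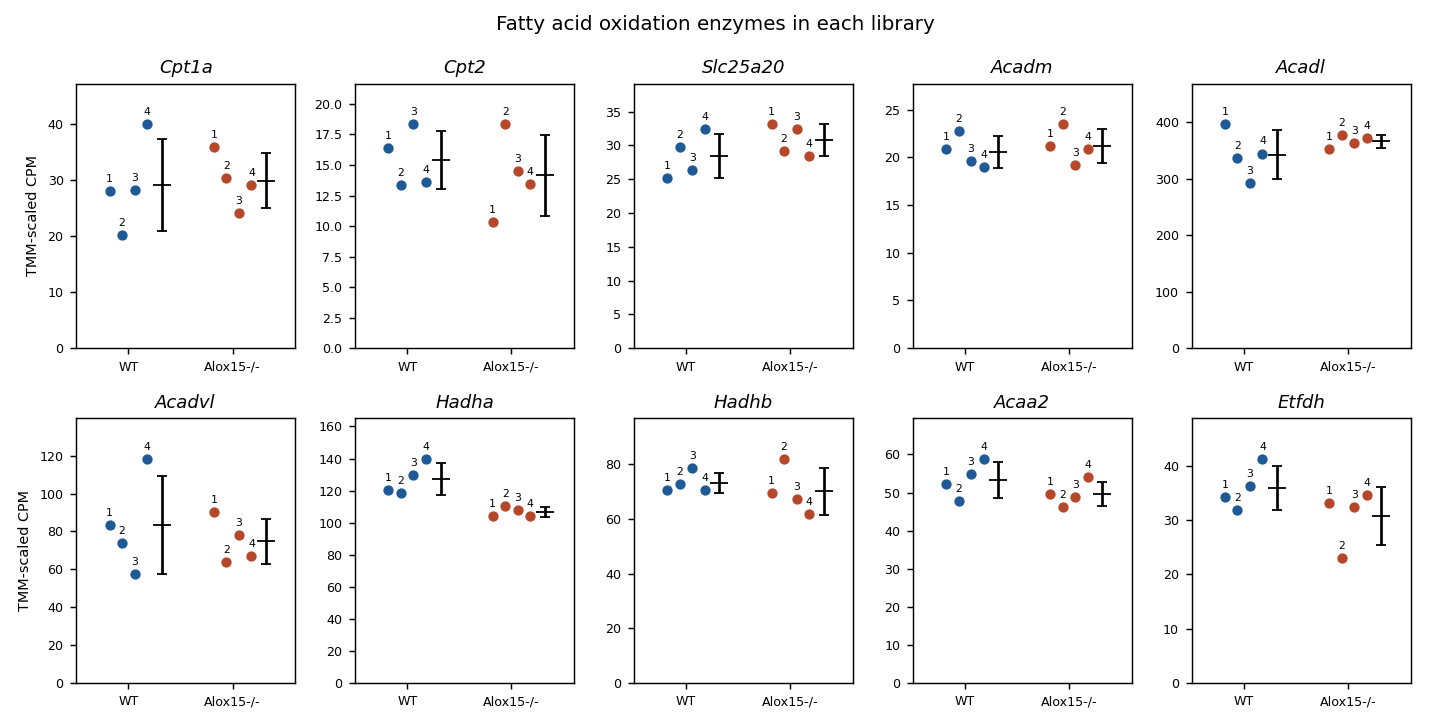
TMM-scaled CPM (y axis, from 0) of the 10 genes in 4 WT libraries (blue) and 4 libraries labelled Alox15-/- (red), with the replicate number above each point and black bars for the mean ± SD of each group. The points of the groups overlap in every panel other than that of Hadha.

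The 3 genes of the carnitine shuttle did not differ beyond their spread. Cpt1a encodes the outer membrane carnitine palmitoyltransferase that transfers the fatty acid to carnitine and is the main point of control of the pathway. Its level in the libraries labelled Alox15-/- was 36.04, 30.5, 24.1 and 29.2 CPM in replicates 1 to 4, and in WT it was 28.1, 20.2, 28.3 and 40.1 CPM. The highest and the lowest of the 8 values both belonged to WT. Its log2 fold change of 0.04 had a standard error of 0.185 and an interval from -0.35 to 0.44 (edgeR adjusted p = 0.977), and turned to -0.055 without Alox15-/- replicate 1, to -0.097 without WT replicate 2 and to 0.22 without WT replicate 4. Cpt1a lies on chromosome 19 of GRCm38 (ENSMUSG00000024900.5, 3322334 to 3385733, plus strand).

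Slc25a20 encodes the carnitine-acylcarnitine translocase of the inner membrane, which exchanges acylcarnitine for carnitine. It was at 33.2, 29.2, 32.4 and 28.5 CPM in the libraries labelled Alox15-/- and at 25.1, 29.8, 26.4 and 32.4 CPM in WT. The 2 lowest values were from WT libraries, but the groups overlapped, and the log2 fold change of 0.12 (standard error 0.128, interval -0.15 to 0.39, edgeR adjusted p = 0.871) was the highest of the 10. Without single libraries it ran from 0.066 (WT replicate 1 left out) to 0.19 (WT replicate 4 left out). Cpt2, the inner membrane enzyme that returns the fatty acid from carnitine to coenzyme A, was at 10.3, 18.4, 14.5 and 13.5 CPM against 16.4, 13.4, 18.4 and 13.6 CPM in WT. Its groups shared nearly the same range, apart from the low value of Alox15-/- replicate 1, which rested on 43 reads. The log2 fold change of Cpt2 was -0.14, with an interval from -0.54 to 0.25 (edgeR adjusted p = 0.906). It was -0.025 without Alox15-/- replicate 1, -0.035 without WT replicate 3 and -0.27 without Alox15-/- replicate 2. Slc25a20 (ENSMUSG00000032602.6) lies on chromosome 9 from 108662088 to 108684641, and Cpt2 (ENSMUSG00000028607.16) on chromosome 4 from 107903981 to 107923610.

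The acyl-CoA dehydrogenases carry out the first step of each round, and the enzymes differ in the chain length they prefer. Acadm encodes the medium-chain enzyme, whose loss in humans is a well known inborn error of fatty acid oxidation. Its values were 21.1, 23.5, 19.2 and 20.9 CPM in the libraries labelled Alox15-/- and 20.9, 22.8, 19.6 and 19.0 CPM in WT. They were nearly superimposed (log2 fold change 0.04, interval -0.25 to 0.33, edgeR adjusted p = 0.97), and their spread within groups of 0.118 (SD of log2 CPM) was below the 0.135 that counting error alone gives at 87 to 195 reads. Leaving out Alox15-/- replicate 2 gave a log2 fold change of -0.0099. Acadl, the long-chain enzyme, was at 352, 377, 364 and 372 CPM against 397, 336.7, 293 and 345 CPM in WT. The values labelled Alox15-/- sat inside the WT range, with an SD of 10.97 CPM against 42.8 CPM (n = 4 each), and the log2 fold change of Acadl was 0.10 (interval -0.12 to 0.31, edgeR adjusted p = 0.871), which moved to 0.032 without WT replicate 3 and to 0.17 without WT replicate 1. Acadm (ENSMUSG00000062908.12) lies on chromosome 3 from 153922357 to 153944632 and Acadl (ENSMUSG00000026003.5) on chromosome 1 from 66830839 to 66863277, both on the minus strand.

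Acadvl, the very long-chain enzyme bound to the inner membrane, varied most between libraries of a group. It was at 90.3, 64.0, 77.9 and 66.8 CPM in the libraries labelled Alox15-/- and at 83.6, 73.8, 57.4 and 118 CPM in WT. WT replicates 3 and 4 held the lowest and the highest value of all 8, so that the WT range enclosed every library of the other group. Its spread within groups of 0.347 compares with 0.0703 from counting error alone. The log2 fold change was -0.15 (standard error 0.182, interval -0.53 to 0.24, edgeR adjusted p = 0.891) and became 0.069 without WT replicate 4 and -0.29 without WT replicate 3. Acadvl (ENSMUSG00000018574.14) lies on chromosome 11 from 70010183 to 70015411 on the minus strand, 328740 bases from the targeted gene Alox15. Within 0.5 Mb of Alox15, 2 of 32 tested genes, Cxcl16 and Pfn1, passed the adjusted threshold, and within 1 Mb 3 of 53 did, with Fxr2 added, beside 1.24% of all genes tested. Acadvl was not among them.

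The 3′ end of Acadvl is shared with a gene on the other strand. Dvl2 (ENSMUSG00000020888.16, chromosome 11, 70000595 to 70012301, plus strand), a transducer of Wnt signals, runs into Acadvl from the opposite side, and the genes overlap by 2119 bases, of which 1151 are exonic in both. Reads of an assay that targets 3′ ends can fall in this stretch, and whether counting used strand is not given in the sources used here. Dvl2 was at 19.7, 14.8, 16.4 and 18.3 CPM in the libraries labelled Alox15-/- and at 19.8, 17.7, 27.0 and 22.8 CPM in WT (log2 fold change -0.34, edgeR adjusted p = 0.663). WT replicate 3 was thus the highest library for Dvl2 and the lowest for Acadvl. How reads in the shared stretch were divided was not tested. The 3′ end of Hadha overlaps Garem2 by 75 bases on the other strand, but Garem2 had at most 4 reads in a library. No other member shared exonic bases with another gene within 500 bases of its 3′ end, and none of the other 9 members had a transcript elsewhere that matched its last 500 bases at 90% identity or more over at least 100 bases.

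**Figure D3:**
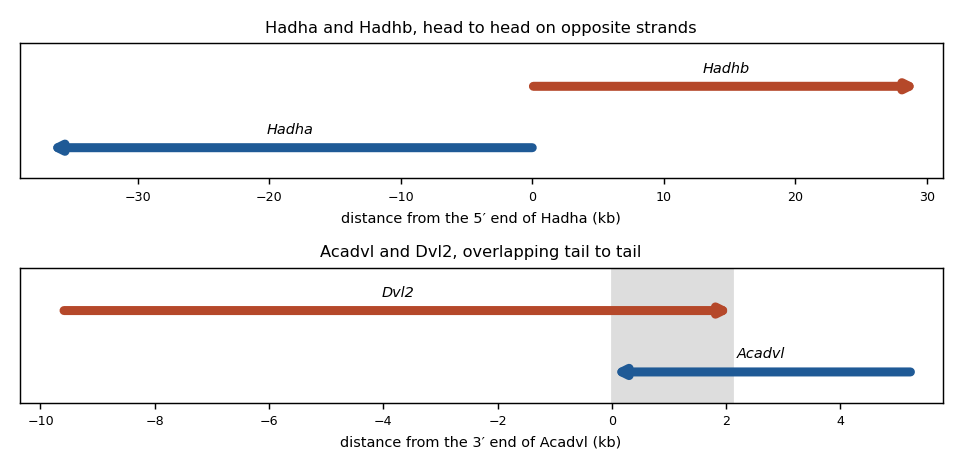
Extent and direction of neighbouring genes drawn to scale, in kb from the 5′ end of Hadha (top) and from the 3′ end of Acadvl (bottom), with arrows in the direction of transcription. Hadha and Hadhb have 85 bases between them and run away from each other, and the grey area marks the 2119 bases in which Acadvl and Dvl2 overlap.

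The stretches before the starts of Acadvl and Acadm are shown because these related enzymes had the widest spread and one of the narrowest. Each line gives 250 bases from RefSeq (GRCm38.p6) in the direction of the gene, chr11:70015429-70015678 on the minus strand for Acadvl and chr3:153944644-153944893 on the minus strand for Acadm, neither of which holds an annotated exon. Capitals mark the core that nuclear receptors such as PPARs and RXRs recognise, AGGTCA on either strand.
Acadvl: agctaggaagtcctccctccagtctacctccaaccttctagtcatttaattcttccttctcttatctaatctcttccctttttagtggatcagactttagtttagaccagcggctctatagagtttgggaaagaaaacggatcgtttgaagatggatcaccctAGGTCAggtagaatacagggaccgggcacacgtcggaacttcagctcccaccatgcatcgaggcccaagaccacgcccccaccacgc
Acadm: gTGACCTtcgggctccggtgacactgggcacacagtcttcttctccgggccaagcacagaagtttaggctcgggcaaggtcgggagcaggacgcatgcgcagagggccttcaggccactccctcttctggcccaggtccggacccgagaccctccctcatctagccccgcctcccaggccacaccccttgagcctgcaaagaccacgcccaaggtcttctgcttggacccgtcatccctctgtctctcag
Each stretch holds the core 1 time, on the gene's own strand in Acadvl and on the other strand in Acadm. RefSeq windows were found for 9 of the 10 members, all but Acaa2. AGGTCA was present in 3 of the 9, with Cpt1a as the third, against 14% of 32851 windows of all genes. The direct repeat that PPAR and RXR bind together, AGGTCA followed after 1 base by a further AGGTCA, was in 0 of the 9 and in 0.0335% of all windows. These letters describe the windows alone and show no binding.

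The mitochondrial trifunctional protein carries out the remaining steps of each round for long chains. Hadha encodes its α subunit, with the hydratase and hydroxyacyl-CoA dehydrogenase activities, and Hadhb its β subunit, with the thiolase activity. Hadha was at 104, 110.1, 108 and 104 CPM in the libraries labelled Alox15-/- and at 120.2, 119, 129.6 and 139.9 CPM in WT. It was the member whose groups did not overlap, as every library labelled Alox15-/- lay below every WT library. Groups that did not overlap were found for 1 of the 10 members and for 5.25% of all genes tested, or 2.5% counting only genes lower in the libraries labelled Alox15-/-. The mean level of Hadha was 107 ± 2.90 CPM (SD, n = 4) against 127 ± 9.83 CPM (SD, n = 4), a log2 fold change of -0.25 (standard error 0.095, interval -0.46 to -0.05). The unadjusted p was 0.0176 and the adjusted p 0.459 by edgeR's quasi-likelihood test, so Hadha was not called.

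Hadhb did not share this separation. Its values were 69.4, 82.1, 67.3 and 61.8 CPM in the libraries labelled Alox15-/- and 70.7, 72.8, 78.7 and 70.6 CPM in WT. Alox15-/- replicate 2 was the highest library of all 8, and the other 3 of its group lay below all WT libraries. The log2 fold change of Hadhb was -0.07 (standard error 0.109, interval -0.30 to 0.16, edgeR adjusted p = 0.924), and it was -0.15 without Alox15-/- replicate 2, -0.0076 without Alox15-/- replicate 4 and -0.025 without WT replicate 3. The ratio of Hadha to Hadhb CPM, examined after these values were seen, was 1.34 to 1.69 in the libraries labelled Alox15-/- and 1.63 to 1.98 in WT. Its mean on the log2 scale was 0.184 lower in the former, a difference that did not pass a two-sided exact permutation test over the 8 libraries (p = 0.114, where the smallest possible p is 0.0286).

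Both subunits are transcribed from 1 locus on chromosome 5, in opposite directions. Hadha (ENSMUSG00000025745.12, minus strand) spans 30118304 to 30155162 and Hadhb (ENSMUSG00000059447.13, plus strand) 30155248 to 30184593, which leaves 85 bases between them. These bases, chr5:30155163-30155247 on the plus strand of GRCm38.p6 from RefSeq, are shown because they lie upstream of both annotated genes. Capitals mark the GC box, GGGCGG on either strand.
Hadha to Hadhb: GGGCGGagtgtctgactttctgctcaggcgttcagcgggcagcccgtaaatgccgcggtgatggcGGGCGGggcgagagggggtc
The GC box occurred 2 times in this interval. Among the windows of 250 bases, it was in 6 of the 9 found for members and in 32.7% of all windows. The windows of Hadha and Hadhb overlap and count the same stretch in both. The core of the NRF1 motif, GCGCA followed directly by TGCGC, was in the window of Etfdh and in 0.782% of all windows, and CCAAT was in those of Cpt1a and Etfdh and in 33.8% of all windows.

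Acaa2, the mitochondrial 3-ketoacyl-CoA thiolase that ends each round for shorter chains, was at 49.5, 46.2, 48.9 and 54.0 CPM in the libraries labelled Alox15-/- and at 52.2, 47.6, 54.8 and 58.9 CPM in WT. The lower part of the WT range overlapped the upper part of the other group, and the log2 fold change was -0.10 (interval -0.33 to 0.13, edgeR adjusted p = 0.871), or -0.050 without WT replicate 4. Etfdh encodes the ubiquinone oxidoreductase that passes electrons from the acyl-CoA dehydrogenases to the respiratory chain. Its levels were 33.2, 22.9, 32.4 and 34.6 CPM in the libraries labelled Alox15-/- and 34.3, 31.9, 36.3 and 41.3 CPM in WT. The low value of Alox15-/- replicate 2 rested on 85 reads, and leaving this library out brought the log2 fold change of Etfdh from -0.21 (interval -0.52 to 0.09, edgeR adjusted p = 0.782) to -0.10. Acaa2 (ENSMUSG00000036880.10) lies on chromosome 18 from 74779197 to 74806208 and Etfdh (ENSMUSG00000027809.14) on chromosome 3 from 79603788 to 79629500.

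The libraries did not shift as a whole for these genes. Relative to the WT mean of each gene, the median over the 10 genes lay between -0.11 and 0.051 on the log2 scale in the 4 libraries labelled Alox15-/- and between -0.13 and 0.14 in the 4 WT libraries. Replicate 4 stood highest among the WT libraries, with 7 of 10 genes above the WT mean, and it was the top WT library for 6 of the 10, as for 29.7% of all genes tested. Cpt1a, Slc25a20 and Acadvl had their highest value in replicate 1 among the libraries labelled Alox15-/- and in replicate 4 among WT, as did 9.57% of all genes tested. Alox15-/- replicate 3 and WT replicate 2 each had 8 of 10 genes below the WT mean. Hadha stood below the WT mean in all 4 libraries labelled Alox15-/-, by 0.21 to 0.29 on the log2 scale.

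**Figure D4:**
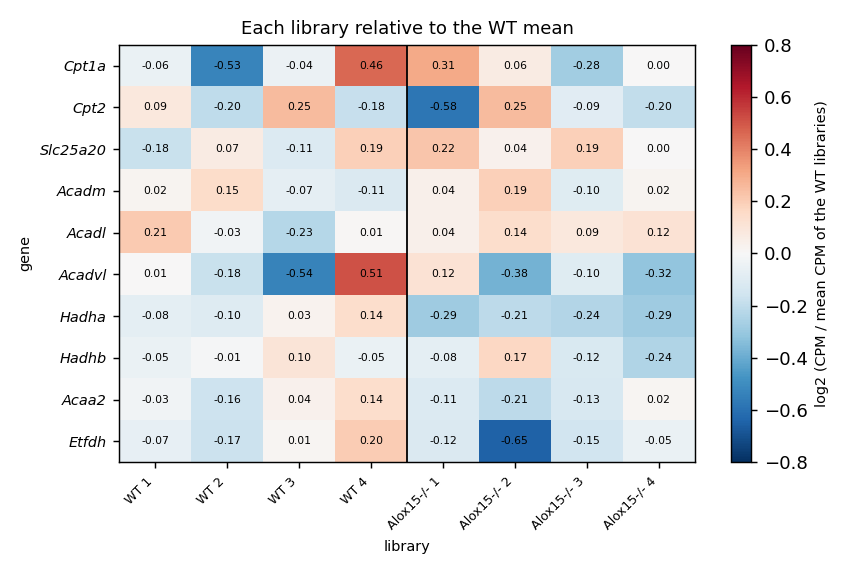
Log2 ratio of CPM in each library to the mean CPM of the 4 WT libraries, for the 10 genes (rows) in 4 WT libraries and 4 libraries labelled Alox15-/- (columns, separated by the black line), red above and blue below the WT mean. The row of Hadha is negative in all 4 libraries labelled Alox15-/-, and the columns hold mixed signs.

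The remaining genes of the pathway were read from lists of 69 genes for fatty acid activation and carnitine supply, other mitochondrial β-oxidation enzymes, peroxisomal β-oxidation and regulators. Of these, 58 were tested, with 26 log2 fold changes above 0 and 32 below, and 0 passed the adjusted threshold by edgeR's quasi-likelihood test, with 4 of 58 (6.90%) at an unadjusted p under 0.05, beside 7.84% of all genes. DESeq2's Wald test, limma-voom and the likelihood-ratio test also called 0. Their median log2 fold change was -0.014. Slc27a2 is not among the symbols, and Cpt1b, Cd36, Bbox1, Scp2, Abcd2, Ppara, Pparg, Ppargc1a, Prkaa2 and Mlxipl did not pass the filter on low counts.

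For activation and carnitine supply, 4 of the 15 tested genes were nominally higher and 11 lower. Their log2 fold changes ran from -0.46 for Cpt1c, the family member best known from neurons, at 3 to 35 counts per library (edgeR adjusted p = 0.819), to 0.13 for Slc22a5, the carnitine transporter of the plasma membrane (edgeR adjusted p = 0.93). Among the 15 other mitochondrial enzymes, 8 were nominally higher and 7 lower, from -0.52 for Acad10 (edgeR adjusted p = 0.788) to 0.14 for Etfb, a subunit of the flavoprotein that hands electrons to the product of Etfdh (edgeR adjusted p = 0.832). The 14 peroxisomal genes, whose pathway shortens very long chains outside mitochondria, had 5 nominally higher and 9 lower, from -0.37 for Abcd3 to 0.28 for Acaa1b. The 14 regulators had 9 nominally higher and 5 lower, from -0.44 for Rxra to 0.32 for Acacb, the acetyl-CoA carboxylase of the mitochondrial surface whose product inhibits the enzyme encoded by Cpt1a (edgeR adjusted p = 0.89). None of these lists held a gene past the adjusted threshold.

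All 4 genes at an unadjusted p under 0.05 were lower in the libraries labelled Alox15-/-, beside 3.38% of all genes tested that were lower at such a p. Rxra, Abcd3 and Aldh9a1 were chosen from them after their values were seen. Groups that did not overlap were found for these 3 of the 58 pathway genes (5.17%), a share near the 5.25% of all genes, where 2.5% of all genes were lower without overlap. Rxra, the partner of PPARs on DNA, was at 59.3, 45.9, 64.7 and 62.5 CPM against 78.9, 68.2, 69.6 and 101 CPM in WT (log2 fold change -0.44, interval -0.74 to -0.14, edgeR adjusted p = 0.294). The groups of Rxra did not overlap, and it was called without the filter on low counts (edgeR adjusted p = 0.0267). Abcd3, a peroxisomal membrane transporter of acyl-CoA, was at 40.1, 41.0, 33.1 and 26.9 CPM against 42.0, 43.3, 43.4 and 52.4 CPM, groups that did not overlap (edgeR adjusted p = 0.497). Aldh9a1, an aldehyde dehydrogenase of carnitine synthesis, was at 93.2, 113, 115 and 104 CPM against 126, 134, 133 and 119 CPM, also without overlap (log2 fold change -0.26, edgeR adjusted p = 0.482).

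Genes of mitochondrial import, chaperones, porins and transcription served to place the enzymes beside other nuclear genes for mitochondria. All 15 were tested, 5 with a log2 fold change above 0 and 10 below, around a median of -0.068, and 0 passed the adjusted threshold or an unadjusted p of 0.05 by edgeR's quasi-likelihood test. They ranged from -0.19 for Tomm70a, a receptor for imported proteins (edgeR adjusted p = 0.644), to 0.09 for Polrmt, the mitochondrial RNA polymerase (edgeR adjusted p = 0.918). Groups that did not overlap, as for Hadha, were found for 2 of the 15, Tomm70a and the chaperone gene Hspa9, beside 5.25% of all genes tested. Both were lower in the libraries labelled Alox15-/-, as 2.5% of all genes were without overlap. The median of the 10 fatty acid oxidation genes, at -0.084, lay close to that of the 15 mitochondrial genes, and the difference was not tested.

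**Figure D5:**
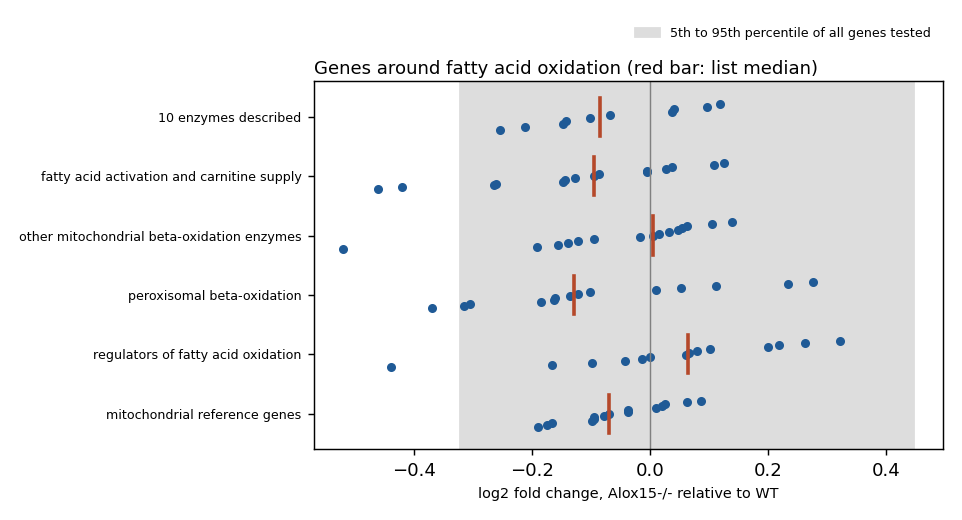
Log2 fold change in the libraries labelled Alox15-/- relative to WT (x axis) of each tested gene of 6 lists, 1 point per gene, with the list's median as a red bar. The grey area spans the 5th to 95th percentile of all 12700 genes tested, -0.32 to 0.45, and all points of the 10 enzymes described lie inside it.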

How the data were processed

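The table of raw counts deposited by the authors holds 28239 gene symbols in 8 libraries, made by MACE-seq on an Illumina NextSeq500 from reads that the labels call cleaned and trimmed. The labels name a small RNA kit in place of the MACE kit of the methods. The submitters' processing notes name Bowtie, edgeR and GRCm38, and the annotation, the counting tool and the use of strand are not given in the sources used here. Columns were assigned by library title. A minimum of 2 CPM in 4 or more libraries, the study's own filter, left 12700 genes, which were fitted with TMM scaling and the quasi-likelihood test of edgeR 4.0.16 in R 4.3.3, group as the only term and Benjamini–Hochberg adjustment over all genes tested. Standard errors were taken as the log2 fold change divided by the square root of F, and 95% intervals from the t distribution of the fit. The biological coefficient of variation was 14.5%.

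The 10 members and all lists were chosen with earlier results of these data known. Named were the members, the targeted gene, and genes past the threshold and the highest and lowest gene of each pathway and reference list. Foxp3 was named as the defining marker, and Dvl2 and Garem2 as overlapping a member. Any other gene given with values was chosen after its values were seen. Alternatives were the size factors or the Wald test of DESeq2 1.42.0, upper quartile scaling, library totals, edgeR's own filter, no filter, at least 10 counts in every library, limma-voom (limma 3.58.1), the likelihood-ratio and robust tests, the replicate number as a block, and each library left out. Positions came from GENCODE M21 (GRCm38), sequence matches from blastn 2.17.0 and exact tests from scipy 1.17.1. Figures were drawn with matplotlib 3.10.9. The values of a further gene of the lists are not reported here.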

Additional observations from a re-analysis of the deposited data

Results flagged for a closer look

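Among the members and the further genes given with values in every library, 28 groups of 4 libraries were examined for 1 library far from the other 3, and 1 group stood out. Abcd3, the peroxisomal acyl-CoA transporter, was at 52.4 CPM in WT replicate 4, while the other 3 WT libraries lay between 42.0 and 43.4 CPM. The gap took 0.857 of the range, above the 95% critical value of Dixon's test for 4 values. Chance marks about 1 in 20 such groups, and none of the 10 fatty acid oxidation genes met this criterion.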

How the results depend on the processing

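Under 19 alternatives (11 settings with all libraries and 8 that each left out 1 library) the number of the 10 fatty acid oxidation genes past the adjusted threshold was 0, and the smallest adjusted p of any member was 0.406, for Hadha with library totals alone. The median log2 fold change of the members stayed between -0.12 and -0.020. Hadha was between -0.28 and -0.20 and had an unadjusted p under 0.05 in 18. Of 190 values for single members, 186 kept their direction. The exceptions came from leaving out libraries, over which Cpt1a ran from -0.097 to 0.22, Acadm from -0.0099 to 0.090 and Acadvl from -0.29 to 0.069. Leaving out libraries also moved Cpt2 between -0.27 and -0.025, Slc25a20 between 0.066 and 0.19, Acadl between 0.032 and 0.17, Hadhb between -0.15 and -0.0076, Acaa2 between -0.15 and -0.050 and Etfdh between -0.28 and -0.10, with no change of sign. The number of members whose groups did not overlap ran from 1 to 2 without single libraries, with Hadhb added without Alox15-/- replicate 2 and Acadl without WT replicate 1. With 1 library left out, groups did not overlap for 7.6% to 9.07% of all genes tested. Over all genes tested, the number called was 158, moved to 388 without the filter and to 100 with at least 10 counts in every library, and ran from 86 to 173 without single libraries. Without the filter, 1 pathway gene, Rxra, was called. The cause of these moves was not tested.

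With the replicate block, 146 genes and 0 members were called, and the members' median was -0.087. Deviations from the group mean correlated at r of -0.20 to 0.18 in same-numbered libraries, with r over 0.1 in 1 of 4 pairs. Between libraries of different numbers r ran from -0.24 to 0.16. With 4 pairs and overlapping ranges, these values cannot decide whether the numbers pair the libraries. Depth limits Cpt2 and Acadm most, for which counting alone gives an SD of log2 CPM of 0.164 and 0.135.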
